A study of Mus musculus with 9 samples.

Results

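A set of 10 genes that mark inhibitory neurons was followed through bulk RNA sequencing of mouse brain: Gad1, Gad2, Slc32a1, Pvalb, Sst, Vip, Npy, Cck, Reln and Calb2. They were chosen by symbol, as genes of GABA synthesis and of interneuron classes, and all 10 were found among the 56748 genes of the count table. All 10 were also among the 17575 genes with enough counts to be tested. The study compared 3 genotypes at 7 months of age. The first was 5xFAD/Cd5l tg/wt, which combines 5xFAD with a mouse CD5L transgene driven by the human PDGF-B promoter. The others were 5xFAD alone and wild-type. 5xFAD mice are a transgenic model in which amyloid builds up in the brain. CD5L is a secreted protein made mainly by macrophages. RNA came from brain with the cerebellum taken off, from 3 animals per genotype, each titled as a separate mouse. The transgene read out as labelled: Cd5l was counted 2553, 2822 and 3551 times in 5xFAD/Cd5l tg/wt libraries 1 to 3, against 0, 0 and 0 counts in the 5xFAD libraries and 0, 1 and 0 counts in the wild-type libraries.

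GABA, the main inhibitory transmitter of the forebrain, is made from glutamate by the GAD enzymes and loaded into synaptic vesicles by the transporter that Slc32a1 encodes. Cortical and hippocampal interneurons are sorted into classes by the calcium-binding proteins and neuropeptides they carry. Pvalb marks fast-spiking basket and chandelier cells, Sst marks dendrite-targeting cells, and Vip and Calb2 mark many cells that inhibit other interneurons. None of these genes is restricted to interneurons in a whole brain: Gad1, Gad2 and Slc32a1 are on in striatal, hypothalamic, thalamic reticular and cerebellar GABA neurons, Calb2 in cerebellar granule cells and thalamic nuclei, and Cck in many excitatory neurons.

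The libraries held 14575416 to 17865150 counts each, and the 10 genes took 0.120% to 0.177% of them. In hypothalamic or cerebellar markers 3 libraries stood furthest from the rest, and for most genes the differences are given with and without them. In 5xFAD/Cd5l tg/wt libraries 2 and 3 the summed level of the hypothalamic markers was 3.17 and 5.92 CPM, the unit of counts scaled to a common library size. It was 88.5 CPM in 5xFAD/Cd5l tg/wt library 1, 63.7 to 81.1 CPM in the 5xFAD libraries and 51.8 to 84.8 CPM in the wild-type libraries. Of the 8 hypothalamic markers, Hcrt, Oxt and Sim1 were at 0 counts in both of those libraries. The library labelled wild-type 3 held 811 CPM of the 8 cerebellar markers, whereas wild-type libraries 1 and 2 held 100 and 41.7 CPM. The same sum ran from 26.9 to 43.5 CPM in the 5xFAD/Cd5l tg/wt libraries and from 39.4 to 63.1 CPM in the 5xFAD libraries. Cerebellar markers were at 0 counts in 3 libraries: Fat2 and Gabra6 in 5xFAD/Cd5l tg/wt library 1, Barhl1 and Gabra6 in 5xFAD/Cd5l tg/wt library 2, and Gabra6 in 5xFAD library 3. The cerebellar values of wild-type library 3 go against the label of a brain without cerebellum. Without these 3 libraries, 5xFAD/Cd5l tg/wt library 1 is the only library left with the Cd5l transgene. It had the lowest summed level of striatal projection neuron markers of the 9, 730 CPM, and the second highest of olfactory bulb markers, 32.8 CPM. Below, a transgenic library, value or group is one of 5xFAD/Cd5l tg/wt. The summed general neuronal markers stayed within 7128 to 7827 CPM over the 9 libraries.

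The promoter windows of 4 of the genes are shown. Gad1 and Gad2 encode the same enzyme activity but kept different levels, and Slc32a1 had the same 2 lowest libraries as both GAD genes. Sst is the class peptide with every 5xFAD/Cd5l tg/wt value below every 5xFAD value. This held for 12.1% of all tested genes, and Sst did not pass the test described below. Each window runs from 250 bases before to 50 bases after the RefSeq transcript start on GRCm38.p6, a build other than that of the counts. It is written 5′ to 3′ on the gene's strand. Capitals mark a match to one of 3 motifs searched on both strands: the cyclic AMP response element TGACGTCA, the TATA box core TATAAA and the homeodomain core TAATTA.
Gad1 (chr2:70561879-70562178, plus strand): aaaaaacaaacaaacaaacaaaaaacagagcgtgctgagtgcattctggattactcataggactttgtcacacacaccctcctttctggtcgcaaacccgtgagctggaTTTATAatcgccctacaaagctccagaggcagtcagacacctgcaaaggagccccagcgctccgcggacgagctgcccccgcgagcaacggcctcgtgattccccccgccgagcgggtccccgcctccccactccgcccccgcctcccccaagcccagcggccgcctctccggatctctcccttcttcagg
Gad2 (chr2:22622077-22622376, plus strand): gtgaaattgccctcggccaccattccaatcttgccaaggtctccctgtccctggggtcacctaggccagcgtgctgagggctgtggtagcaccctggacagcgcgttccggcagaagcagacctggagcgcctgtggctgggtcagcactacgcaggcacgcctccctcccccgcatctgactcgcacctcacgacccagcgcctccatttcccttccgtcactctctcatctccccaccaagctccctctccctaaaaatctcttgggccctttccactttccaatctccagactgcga
Slc32a1 (chr2:158610508-158610807, plus strand): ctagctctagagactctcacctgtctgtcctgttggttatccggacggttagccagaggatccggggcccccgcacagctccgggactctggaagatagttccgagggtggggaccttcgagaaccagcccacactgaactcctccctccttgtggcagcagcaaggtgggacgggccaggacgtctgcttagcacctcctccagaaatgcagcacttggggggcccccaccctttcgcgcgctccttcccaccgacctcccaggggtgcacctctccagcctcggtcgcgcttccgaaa
Sst (chr16:23890795-23891094, minus strand): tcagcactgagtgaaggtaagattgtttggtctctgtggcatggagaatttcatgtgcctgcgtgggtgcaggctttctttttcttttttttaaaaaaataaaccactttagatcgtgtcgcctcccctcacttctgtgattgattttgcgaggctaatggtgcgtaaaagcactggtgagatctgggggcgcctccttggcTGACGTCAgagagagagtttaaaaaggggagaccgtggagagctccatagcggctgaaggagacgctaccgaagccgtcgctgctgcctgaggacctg
Of the 10 genes, 9 had a window in the RefSeq table and Calb2 had none. The response element was present in 1.79% of 32851 windows of mouse genes, and among the 9 genes it was found in the Sst window, where it began 48 bases before the start. The TATA box core was present in 13.6% of all windows. It was found once in Gad1, on the reverse strand and 141 bases before the start, and 3 times in Vip. The homeodomain core was present in 5.29% of all windows and in none of the 9. The GC content was 60% for Gad1, 61.3% for Gad2, 63.3% for Slc32a1 and 50.3% for Sst, against a median of 52.7% over all windows. These matches describe the letters of the windows only.

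Levels of different genes were set side by side per kilobase of the deposited gene length; what that length counts is not given in the sources used here. On this scale Sst had the highest level, with 198 ± 24.8 CPM per kb over the 9 libraries (SD), and Cck came next with 131 ± 17.2 CPM per kb. Both orders held in 9 of 9 libraries. Npy averaged 71.3 ± 7.71, Pvalb 63.3 ± 25.9, Gad1 59.8 ± 9.36, Slc32a1 54.1 ± 9.37, Gad2 48.9 ± 9.13 and Calb2 34.2 ± 18.0 CPM per kb. Neighbours in that run differed by less than the larger SD of each pair. Npy exceeded Pvalb in 8 of 9 libraries, Pvalb exceeded Gad1 in 5, Gad1 exceeded Slc32a1 in 7, Slc32a1 exceeded Gad2 in 8 and Gad2 exceeded Calb2 in 8. Vip, with 8.76 ± 0.980 CPM per kb, and Reln, with 3.60 ± 0.713 CPM per kb, lay below the others in 9 of 9 libraries.

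**Figure D1:**
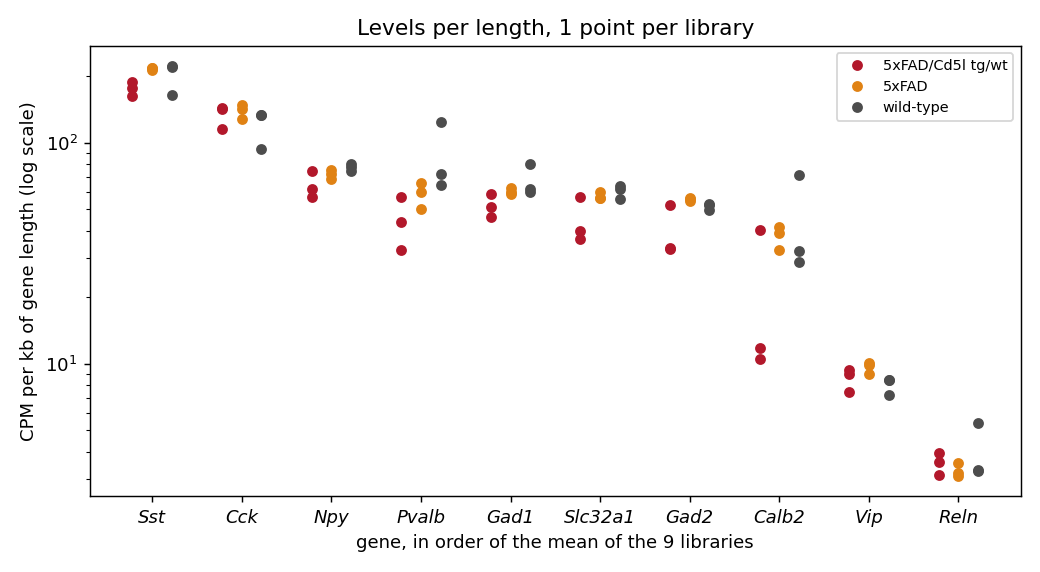
Level of each gene per kilobase of deposited gene length (y axis, CPM per kb, log scale) for the genes in order of their mean over 9 libraries (x axis); each point is 1 library, with 5xFAD/Cd5l tg/wt left, 5xFAD in the middle and wild-type right. Sst is highest at a mean of 198 CPM per kb and Reln lowest at 3.60 CPM per kb, and Pvalb and Calb2 show the widest spread between libraries.

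The genes differed in how steady they were between libraries. The ratio of the highest to the lowest library was 6.82 for Calb2 and 3.79 for Pvalb, the 2 calcium-binding proteins. It was 1.75 for Gad1, 1.73 for Slc32a1, 1.73 for Reln and 1.70 for Gad2. It was 1.57 for Cck, 1.42 for Npy, 1.39 for Vip and 1.36 for Sst, so the 4 neuropeptide genes were the steadiest. The SD of log2 CPM over the 9 libraries was above the median of all tested genes, 0.20, in 7 of the 10 genes. The other genes were Sst, Vip and Npy, with 0.19, 0.16 and 0.16.

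No gene of the 10 passed the test in any comparison. The test was edgeR's quasi-likelihood test with Benjamini-Hochberg adjustment over all tested genes and a threshold of 0.05. Between 5xFAD/Cd5l tg/wt and 5xFAD, 0 of 10 passed, against 6.23% of all tested genes. Between 5xFAD/Cd5l tg/wt and wild-type, 0 of 10 passed, against 1.58% of all tested genes. Between 5xFAD and wild-type, 0 of 10 passed, against 3.5% of all tested genes. At an unadjusted p under 0.05 the counts were 3, 6 and 2 in the same order of comparisons, while 22.3%, 12.4% and 16.3% of all tested genes reached it. With DESeq2 the counts at the adjusted threshold were 2 (Gad2 and Slc32a1), 2 (Gad1 and Slc32a1) and 0, while 8.18%, 2.74% and 4.82% of all genes with an adjusted p passed. Labels name separate mice and nothing more about litters or days, so the p-values measure the spread between these 9 libraries.

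The direction of the differences was mostly downward in the 5xFAD/Cd5l tg/wt libraries. Against 5xFAD, 9 of 10 log2 fold changes were negative, with a median of -0.26 for the 10 genes and 0.01 for all tested genes. Against wild-type, 8 of 10 were negative, with a median of -0.32 for the 10 genes and 0.00 for all tested genes. In 5xFAD against wild-type, 6 of 10 were negative, with a median of -0.09 for the 10 genes and -0.01 for all tested genes. Both 5xFAD/Cd5l tg/wt comparisons use the same 3 transgenic libraries, and the comparisons with wild-type share the wild-type libraries.

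**Figure D2:**
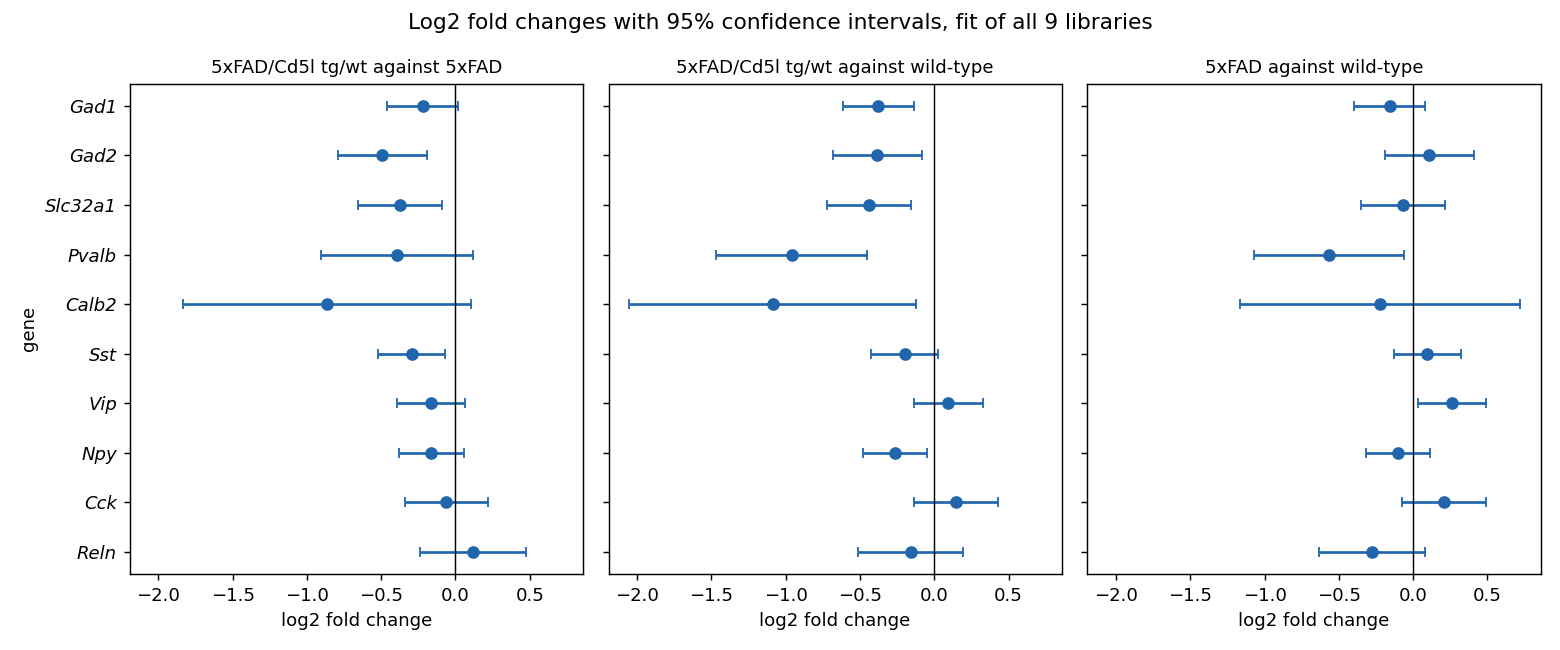
Log2 fold change (x axis) of each gene (y axis) with its 95% confidence interval in the 3 comparisons, from the edgeR fit of all 9 libraries. For 5xFAD/Cd5l tg/wt, the intervals of Gad2 (-0.49), Slc32a1 and Sst lie below 0 against 5xFAD. Against wild-type those of Gad1, Gad2, Slc32a1, Pvalb (-0.96), Npy and Calb2 do. In 5xFAD against wild-type the interval of Pvalb lies below 0 and that of Vip above. Calb2 has the widest interval in each panel. None of the 10 genes passed after adjustment over all tested genes.

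Separation of the genotypes library by library was counted for the 10 genes and for all tested genes. Against 5xFAD, 2 of 10 genes (Gad2 and Sst) were lower in every 5xFAD/Cd5l tg/wt library than in every 5xFAD library, against 12.1% of all tested genes, and 0 of 10 were higher, against 16.6%. Against wild-type, 2 of 10 (Gad1 and Pvalb) were lower in every 5xFAD/Cd5l tg/wt library, against 6.53% of all tested genes, and 0 were higher, against 7.93%. In 5xFAD against wild-type, 2 of 10 (Gad2 and Vip) were higher in every 5xFAD library, against 10.4% of all tested genes, and 0 were lower, against 13.9%.

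Gad1 encodes GAD67, the enzyme that makes most of the GABA in neurons, and lies at chr2:70383416-70432358 on GRCm39. It had 446, 390 and 351 CPM in the 5xFAD/Cd5l tg/wt libraries, 458, 446 and 478 CPM in the 5xFAD libraries and 472, 459 and 613 CPM in the wild-type libraries. The 3 transgenic values all lay below the wild-type values, and the first of them overlapped the 5xFAD values. Its log2 fold change was -0.22 ± 0.11 (SE) for 5xFAD/Cd5l tg/wt against 5xFAD, with an adjusted p of 0.263. Against wild-type it was -0.38 ± 0.11, with an adjusted p of 0.143. For 5xFAD against wild-type it was -0.16 ± 0.11, with an adjusted p of 0.535. Without the 3 libraries that stand apart, Gad1 differed by -0.06 from 5xFAD and by -0.07 from wild-type in 5xFAD/Cd5l tg/wt, on its library 1 alone. In bulk tissue, fewer cells of a type and less RNA per cell cannot be told apart, for this gene and for the others.

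Gad2, at chr2:22512217-22583886, encodes GAD65, the form found at synaptic terminals. It had 306, 196 and 194 CPM in the 5xFAD/Cd5l tg/wt libraries, 327, 322 and 330 CPM in the 5xFAD libraries and 292, 307 and 310 CPM in the wild-type libraries. The 5xFAD and wild-type values kept within a narrow band each, and the drop in the transgenic group sat in libraries 2 and 3. Against 5xFAD the log2 fold change was -0.49 ± 0.14 (95% confidence interval -0.79 to -0.19), with an adjusted p of 0.0550. The same difference passed with RLE scaling (adjusted p = 0.0495) and with limma-voom (adjusted p = 0.0361), as did 6.18% and 6.15% of all tested genes. Against wild-type it was -0.38 ± 0.14, with an adjusted p of 0.258. Without the 3 libraries that stand apart, Gad2 differed by -0.11 from 5xFAD (adjusted p = 0.374) and by 0.03 from wild-type (adjusted p = 0.894). Only 1 transgenic library then remained, and it was assumed to vary like the other groups. With transgenic library 1 left out instead, the difference from 5xFAD was -0.75, with an adjusted p of 1.99e-05. That fit keeps only libraries 2 and 3, where the drop had already been seen, so it adds no separate evidence of a drop.

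Slc32a1, at chr2:158452687-158457668, encodes the vesicular GABA transporter. It had 159, 103 and 112 CPM in the 5xFAD/Cd5l tg/wt libraries, 158, 168 and 157 CPM in the 5xFAD libraries and 178, 156 and 172 CPM in the wild-type libraries. As with Gad2, transgenic library 1 lay among the other genotypes and libraries 2 and 3 lay below them. Slc32a1 had a log2 fold change of -0.37 ± 0.13 against 5xFAD (adjusted p = 0.114) and -0.44 ± 0.13 against wild-type (adjusted p = 0.149). Leaving out the 3 libraries gave -0.04 and -0.08, on transgenic library 1 alone. The lncRNA gene Gm14205 overlaps Slc32a1 on the other strand and shares 23.7% of its 50-base words. Its counts summed to 786 over the 9 libraries, 3.62% of those of Slc32a1, and the strandedness of the counting is not given in the sources used here.

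Gad1, Gad2 and Slc32a1 thus had the same 2 lowest libraries, 5xFAD/Cd5l tg/wt 2 and 3, in which the hypothalamic marker sums were 3.17 and 5.92 CPM. Calb2 shared that pattern, which makes 4 of the 10 genes, against 8.89% of all tested genes. In a wider list of 8 genes of GABA handling, which includes the first 3, 7 had those 2 libraries as their lowest. For the astrocyte GABA transporter Slc6a11 the values were 332, 147 and 181 CPM in the 5xFAD/Cd5l tg/wt libraries, against 301, 335 and 348 CPM in the 5xFAD libraries and 269, 252 and 358 CPM in the wild-type libraries. Of the hypothalamic markers, 7 of the 7 tested had the same 2 lowest libraries; Pmch, which marks melanin-concentrating hormone neurons, had 31.2, 0.13 and 0.17 CPM in the 5xFAD/Cd5l tg/wt libraries and 23.6 to 38.9 CPM in the other 6. With transgenic library 1 left out, libraries 2 and 3 alone stood for the genotype. Gad2, Slc32a1 and Calb2 then passed against 5xFAD, and Gad1 passed with them against wild-type, while 11.5% and 3.82% of all tested genes passed. These 4 genes were already known to be lowest in those 2 libraries, so the calls are not separate support for a difference of the genotype. Of the 5 oligodendrocyte markers, 4 also had those 2 libraries as their lowest; their sum was 5906, 3904 and 5214 CPM in the 5xFAD/Cd5l tg/wt libraries, 5492 to 6206 CPM in the 5xFAD libraries and 6068 to 6878 CPM in the wild-type libraries. The part of the regional and oligodendrocyte markers in the differences of the GABA genes was not tested.

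**Figure D3:**
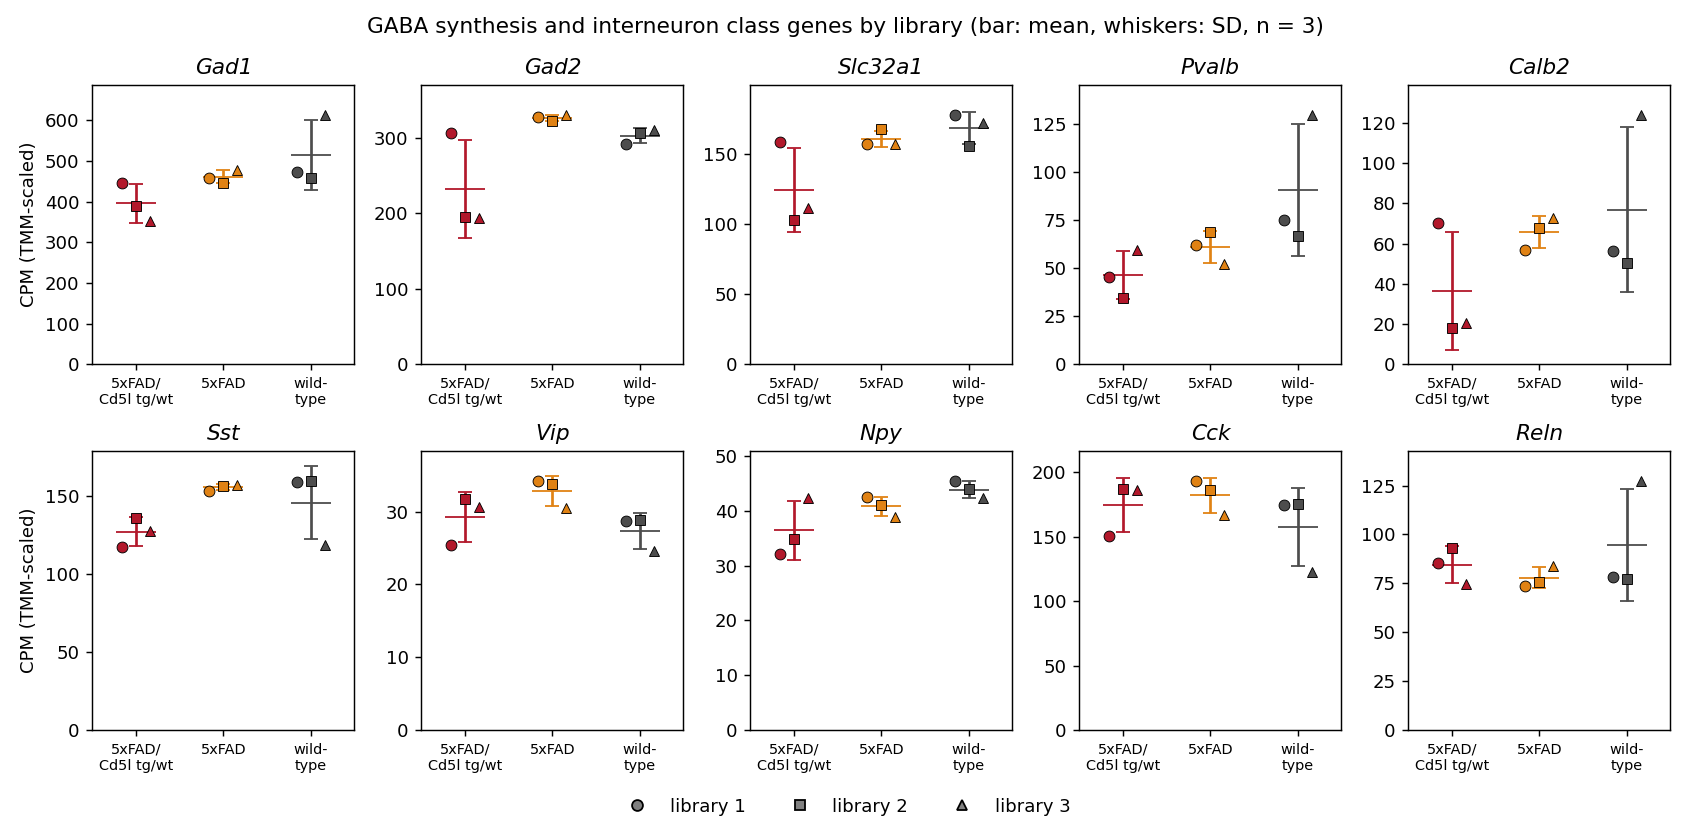
CPM (y axis, from 0, TMM-scaled) of each of the 10 genes in every library, by genotype (x axis: 5xFAD/Cd5l tg/wt, 5xFAD, wild-type); symbols give the library number, bars the mean and whiskers the SD of 3 libraries. Transgenic libraries 2 and 3 are low for Gad2, Slc32a1 and Calb2, and wild-type library 3 is high for Gad1, Pvalb, Calb2 and Reln and low for Sst, Vip and Cck.

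Pvalb encodes parvalbumin, a calcium buffer of fast-spiking interneurons, and lies at chr15:78075314-78090600. It had 45.5, 34.2 and 59.1 CPM in the 5xFAD/Cd5l tg/wt libraries, 62.1, 68.6 and 52.1 CPM in the 5xFAD libraries and 75.1, 66.8 and 130 CPM in the wild-type libraries. Every transgenic value lay below every wild-type value, and the 5xFAD values overlapped both. The log2 fold change for 5xFAD/Cd5l tg/wt relative to wild-type was -0.96 ± 0.23 (95% confidence interval -1.47 to -0.45), a 0.514-fold level, with an adjusted p of 0.0733. For 5xFAD against wild-type it was -0.57 ± 0.23 (adjusted p = 0.245), and for 5xFAD/Cd5l tg/wt against 5xFAD it was -0.39 ± 0.24 (adjusted p = 0.351). The wild-type mean of 90.4 ± 34.1 CPM leaned on library 3, the library with 811 CPM of cerebellar markers; parvalbumin is also abundant in cerebellar Purkinje cells and interneurons. Without the 3 libraries the difference from wild-type was -0.64 for 5xFAD/Cd5l tg/wt and -0.21 for 5xFAD. The first of these values rests on transgenic library 1 (45.5 CPM) alone. The part of cerebellar RNA in these values was not tested.

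Calb2 encodes calretinin, another calcium-binding protein, and lies at chr8:110864134-110894842. It was the least steady of the 10 genes. Its level was 70.2, 18.2 and 20.4 CPM in the 5xFAD/Cd5l tg/wt libraries, 56.8, 67.8 and 72.8 CPM in the 5xFAD libraries and 56.5, 50.3 and 124 CPM in the wild-type libraries. The raw counts behind the extremes were 270 in transgenic library 2 and 1795 in wild-type library 3. Calb2 was thus low in the libraries with hypothalamic markers near 0 and high in the library with cerebellar markers. In 5xFAD/Cd5l tg/wt the log2 fold change was -0.86 ± 0.45 against 5xFAD (95% confidence interval -1.83 to 0.10, adjusted p = 0.275) and -1.09 ± 0.45 against wild-type (-2.05 to -0.12, adjusted p = 0.338). Both signs turned without the 3 libraries, to 0.08 and 0.39, values that rest on transgenic library 1 (70.2 CPM) alone. In 5xFAD against wild-type the value was -0.22 ± 0.43 with all libraries (adjusted p = 0.858) and 0.31 without the 3 (adjusted p = 0.0826).

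Among the peptide genes, Sst encodes somatostatin and lies at chr16:23708323-23709708. It had 118, 136 and 128 CPM in the 5xFAD/Cd5l tg/wt libraries, 154, 156 and 157 CPM in the 5xFAD libraries and 159, 160 and 119 CPM in the wild-type libraries. The transgenic values lay below all 5xFAD values, and below those of wild-type libraries 1 and 2 but around that of library 3. The log2 fold change was -0.29 ± 0.10 against 5xFAD, a 0.816-fold level, with an adjusted p of 0.119, and -0.20 ± 0.10 against wild-type, with an adjusted p of 0.476. Leaving out the 3 libraries gave -0.42 (adjusted p = 0.0108) and -0.45 (adjusted p = 0.0103). These values rest on transgenic library 1 alone, the lowest of the 9 for Sst and the one with the lowest striatal sum (730 CPM). Without wild-type library 3 alone, the difference from 5xFAD passed with an adjusted p of 0.0224, as did 7.36% of all tested genes. In a fit of the 6 compared libraries its adjusted p was 0.0391, and 5.97% of all tested genes passed.

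Vip, at chr10:5589218-5597617, encodes vasoactive intestinal peptide. It had 25.4, 31.7 and 30.6 CPM in the 5xFAD/Cd5l tg/wt libraries, 34.2, 33.7 and 30.5 CPM in the 5xFAD libraries and 28.7, 28.8 and 24.5 CPM in the wild-type libraries. Each 5xFAD value lay above each wild-type value, with a log2 fold change of 0.26 ± 0.11 that did not pass (adjusted p = 0.240). For 5xFAD/Cd5l tg/wt the log2 fold change was -0.17 ± 0.11 against 5xFAD (adjusted p = 0.382) and 0.09 ± 0.11 against wild-type (adjusted p = 0.786). Leaving out the 3 libraries gave -0.39 (adjusted p = 0.0780) and -0.19 (adjusted p = 0.533), values that rest on transgenic library 1, the lowest of its group for Vip.

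Npy, at chr6:49799690-49806487, encodes neuropeptide Y, found in neurogliaform cells and in many Sst cells. It had 32.1, 34.8 and 42.4 CPM in the 5xFAD/Cd5l tg/wt libraries, 42.5, 41.0 and 39.0 CPM in the 5xFAD libraries and 45.5, 43.9 and 42.2 CPM in the wild-type libraries. Transgenic libraries 1 and 2 lay below the other genotypes and library 3 among them. Npy had log2 fold changes of -0.16 ± 0.10 against 5xFAD (adjusted p = 0.367) and -0.27 ± 0.10 against wild-type (adjusted p = 0.285). With the 3 libraries left out these were -0.36 (adjusted p = 0.0705) and -0.48 (adjusted p = 0.0379), with transgenic library 1, the lowest of the 9 for Npy, alone for its genotype. For 5xFAD against wild-type it was -0.10 ± 0.10 (adjusted p = 0.676).

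Cck, at chr9:121318890-121324760, encodes cholecystokinin, which marks a class of basket cells and is also made by many pyramidal neurons. It had 150, 187 and 186 CPM in the 5xFAD/Cd5l tg/wt libraries, 193, 186 and 167 CPM in the 5xFAD libraries and 175, 175 and 123 CPM in the wild-type libraries. The 3 genotypes overlapped. Its log2 fold changes were -0.06 ± 0.13 against 5xFAD (adjusted p = 0.815) and 0.15 ± 0.13 against wild-type (adjusted p = 0.713) for 5xFAD/Cd5l tg/wt, and 0.21 ± 0.13 for 5xFAD against wild-type (adjusted p = 0.477). With the 3 libraries left out Cck differed in 5xFAD/Cd5l tg/wt by -0.29 from 5xFAD (adjusted p = 0.0871) and by -0.23 from wild-type (adjusted p = 0.302), again on transgenic library 1, the lowest of its group.

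Sst, Vip and Cck had the same 2 lowest libraries, 5xFAD/Cd5l tg/wt 1 and wild-type 3. This pair was singled out after the values were seen. Its share over all tested genes was not counted, so the shared pair is not read as a trait of these genes. The summed markers of striatal projection neurons were also lowest there, at 730 CPM in the transgenic library and 912 CPM in the wild-type library. In the other libraries of the same genotypes they were 1481 and 1141 CPM for 5xFAD/Cd5l tg/wt and 1209 and 1494 CPM for wild-type, and in the 5xFAD libraries they were 1132 to 1308 CPM. The olfactory bulb markers were highest in the same libraries, at 32.8 and 62.5 CPM. The part of these markers in the peptide values was not tested.

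Reln, at chr5:22089452-22549700, encodes reelin, an extracellular protein made in the adult forebrain mainly by interneurons and in the cerebellum by granule cells. It had 85.6, 93.3 and 74.5 CPM in the 5xFAD/Cd5l tg/wt libraries, 73.8, 75.8 and 84.0 CPM in the 5xFAD libraries and 78.3, 77.5 and 127 CPM in the wild-type libraries. Apart from wild-type library 3, the genotypes overlapped. Its log2 fold change was 0.12 ± 0.16 for 5xFAD/Cd5l tg/wt against 5xFAD (adjusted p = 0.714), -0.16 ± 0.16 for 5xFAD/Cd5l tg/wt relative to wild-type (adjusted p = 0.759) and -0.28 ± 0.16 for 5xFAD against wild-type (adjusted p = 0.447). The comparisons with wild-type, without the 3 libraries, gave 0.13 for 5xFAD/Cd5l tg/wt, on its library 1 alone, and 0.01 (adjusted p = 0.954) for 5xFAD.

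**Figure D4:**
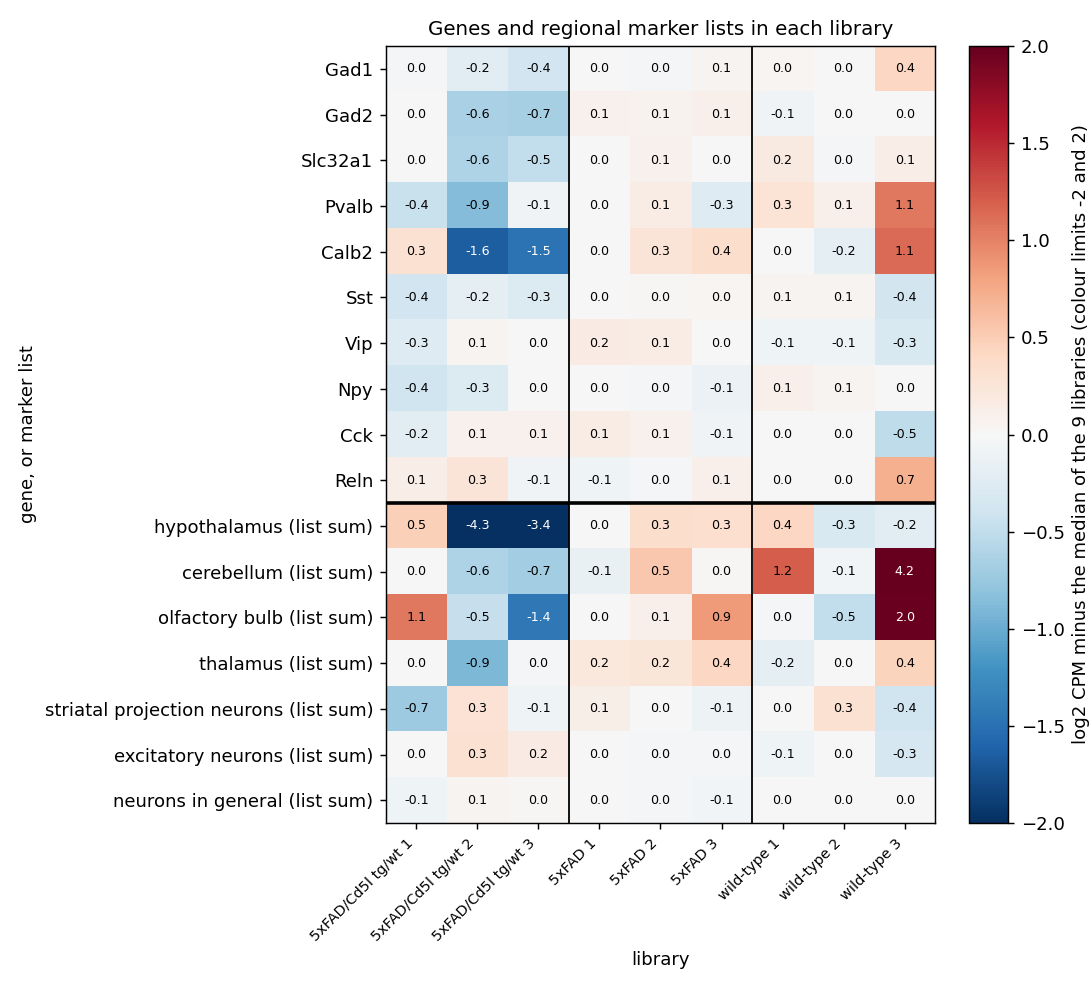
Log2 CPM minus the median of the 9 libraries for the 10 genes (upper rows) and for the summed regional and neuronal marker lists (lower rows) in each library (columns: 5xFAD/Cd5l tg/wt, 5xFAD, wild-type); colours saturate at -2 and 2. The hypothalamic sum stands at -4.33 and -3.43 in transgenic libraries 2 and 3, where Calb2 stands at -1.64 and -1.48, and the cerebellar sum stands at 4.22 in wild-type library 3, where Calb2 stands at 1.13.

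Wild-type library 3 was the highest of the 9 for Gad1, Pvalb, Reln and Calb2, 4 of the 10 genes, against 16.4% of all tested genes. The same library was the lowest for Vip and Cck. All 8 cerebellar markers and all 3 tested olfactory bulb markers were highest in it; Cbln3, which marks cerebellar granule cells, had 192 CPM there, whereas wild-type libraries 1 and 2 had 18.5 and 2.98 CPM. Leaving out the 3 libraries drew the differences of Gad1, Gad2 and Slc32a1 towards 0, turned the sign of Calb2, and moved those of Sst, Vip, Npy and Cck downward in 5xFAD/Cd5l tg/wt. In that fit 1 gene (Sst) passed against 5xFAD and 3 genes (Pvalb, Sst and Npy) passed for 5xFAD/Cd5l tg/wt relative to wild-type, all lower, against 3.39% and 1.94% of all tested genes; 0 passed for 5xFAD against wild-type, against 6.2%. The set of genes that passed therefore depended on which libraries were fitted.

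**Figure D5:**
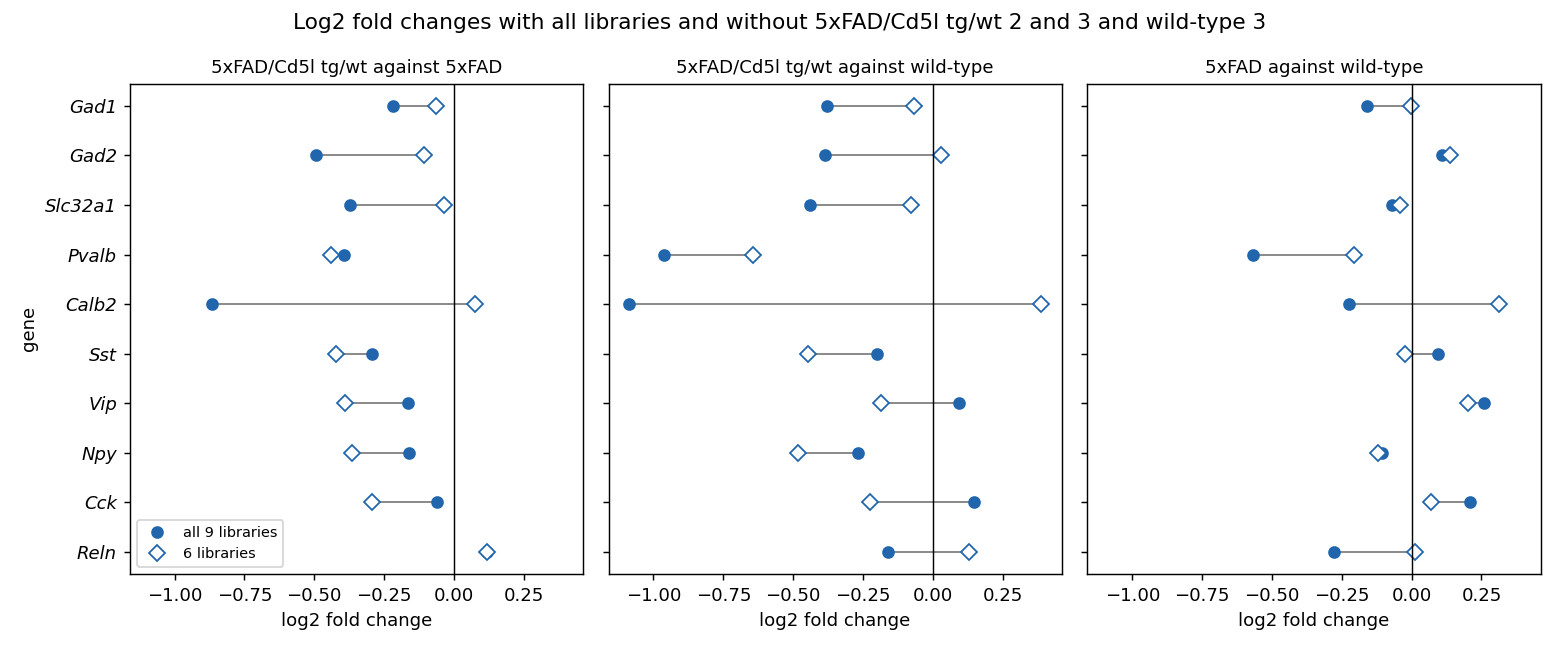
Log2 fold change (x axis) of each gene (y axis) in the 3 comparisons with all 9 libraries (filled circles) and without 5xFAD/Cd5l tg/wt libraries 2 and 3 and wild-type library 3 (open diamonds). Gad2 against 5xFAD goes to -0.11, against -0.49 with all libraries, and Sst goes to -0.42, against -0.29.

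Ratios within a library do not depend on its scaling. The ratio of Gad1 to Gad2 in CPM was 1.46, 1.99 and 1.81 in the 5xFAD/Cd5l tg/wt libraries, 1.40, 1.38 and 1.45 in the 5xFAD libraries and 1.62, 1.50 and 1.98 in the wild-type libraries. These ratios compare libraries and are not per length: the deposited gene lengths are 7639 bases for Gad1 and 5876 bases for Gad2. Per kilobase the 5xFAD means were 60.3 CPM for Gad1 and 55.6 CPM for Gad2. The 5xFAD libraries were the tightest group, and the libraries that stand apart held the 3 highest ratios. Relative to the sum of Gad1 and Gad2, Sst was 0.156, 0.233 and 0.234 in the 5xFAD/Cd5l tg/wt libraries, 0.196, 0.204 and 0.194 in the 5xFAD libraries and 0.208, 0.209 and 0.129 in the wild-type libraries. Measured this way Sst no longer separated 5xFAD/Cd5l tg/wt from 5xFAD. The sum itself was 753, 586 and 545 CPM in the 5xFAD/Cd5l tg/wt libraries and 786, 768 and 809 CPM in the 5xFAD libraries. Sst was 136 and 128 CPM in transgenic libraries 2 and 3, below every 5xFAD value. The overlap of the ratios thus reflects the lower denominator in these libraries as well as Sst.

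Pvalb relative to the same sum was 0.0605, 0.0584 and 0.108 in the 5xFAD/Cd5l tg/wt libraries, 0.0790, 0.0894 and 0.0644 in the 5xFAD libraries and 0.0983, 0.0872 and 0.140 in the wild-type libraries, with overlap between the genotypes. Calb2 was 0.0932, 0.0311 and 0.0375 in the 5xFAD/Cd5l tg/wt libraries, 0.0723, 0.0884 and 0.0900 in the 5xFAD libraries and 0.0740, 0.0658 and 0.134 in the wild-type libraries. On this scale too it was lowest in transgenic libraries 2 and 3. Slc32a1 kept the closest relation to the sum, from 0.176 to 0.233 over all 9 libraries.

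Other genes of the same cells were read from 9 lists with 65 genes beside the 10: GABA handling, interneuron fate regulators, fast-spiking cells, the perineuronal net, Sst cells, Vip and Cck cells, neurogliaform cells, peptide receptors and reelin signalling. In 5xFAD/Cd5l tg/wt against 5xFAD, 2 of the 65 fell and 0 rose, 3.08% against 6.23% of all tested genes, and the median was -0.08 log2 units. In 5xFAD/Cd5l tg/wt against wild-type, 1 fell and 0 rose, 1.54% against 1.58% of all tested genes, and the median was -0.05. In 5xFAD against wild-type 0 passed, against 3.5% of all tested genes, and the median was 0.01. The fate regulators, among them Lhx6 and the Dlx genes that direct interneuron development, held 15 genes of which 0 passed in any of the 3 comparisons; at these shares of all tested genes, less than 1 call among 15 is the background in each.

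Tac1, the precursor of substance P and a peptide of some Pvalb cells and of striatal neurons, fell in 5xFAD/Cd5l tg/wt. It had 33.4, 36.4 and 36.8 CPM in these libraries, 55.5, 50.7 and 48.2 CPM in the 5xFAD libraries and 49.5, 66.1 and 40.1 CPM in the wild-type libraries. The log2 fold change against 5xFAD was -0.53 ± 0.14, with an adjusted p of 0.0474, and the transgenic values lay below all the others. The call was lost with any 1 of 7 libraries left out, all but wild-type libraries 2 and 3, with adjusted p up to 0.190, with upper-quartile scaling (adjusted p = 0.0534) and with limma-voom (adjusted p = 0.0515). Without the 3 libraries that stand apart the difference from 5xFAD was -0.64, on transgenic library 1 (33.4 CPM) alone. That value is therefore not read as separate support for the call. The same library had the lowest striatal sum, 730 CPM, while transgenic libraries 2 and 3 had 1481 and 1141 CPM. The part of the striatal markers in the Tac1 values was not tested.

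Crh, corticotropin-releasing hormone, which is made by a subset of Vip cells and by hypothalamic neurons, had 2.26, 4.86 and 4.68 CPM in the 5xFAD/Cd5l tg/wt libraries, 7.15, 9.04 and 6.63 CPM in the 5xFAD libraries and 6.22, 4.80 and 6.36 CPM in the wild-type libraries. It fell against 5xFAD, with a log2 fold change of -0.95 ± 0.26 and an adjusted p of 0.0475. The call was lost with any 1 of 7 libraries left out, all but 5xFAD/Cd5l tg/wt library 1 and wild-type library 3, with adjusted p up to 0.213, and in the fit of the 6 compared libraries (adjusted p = 0.0646). Without the 3 libraries the difference was -1.77 (adjusted p = 0.00856), set by transgenic library 1 alone.

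Acan, which encodes aggrecan, the core proteoglycan of the nets around Pvalb cells, had 5.06, 3.98 and 4.29 CPM in the 5xFAD/Cd5l tg/wt libraries, 5.69, 5.39 and 5.02 CPM in the 5xFAD libraries and 6.80, 7.30 and 8.71 CPM in the wild-type libraries. It fell against wild-type, by 0.77 ± 0.17 on the log2 scale, with an adjusted p of 0.0421. The transgenic values did not overlap the wild-type values. The call was lost with any 1 library left out except 5xFAD/Cd5l tg/wt library 1, with adjusted p up to 0.161, in the fit of the 6 compared libraries (adjusted p = 0.133) and without the 3 libraries together (-0.48, adjusted p = 0.404). The other 5 net genes did not pass in any of the 3 comparisons.

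Several listed genes stood near the threshold. Chodl, a marker of long-range Sst cells, had 2.33, 0.67 and 1.47 CPM in the 5xFAD/Cd5l tg/wt libraries, 1.52, 1.68 and 1.94 CPM in the 5xFAD libraries and 4.13, 3.65 and 4.08 CPM in the wild-type libraries. Both 5xFAD genotypes lay below wild-type in every library. The log2 fold change against wild-type was -1.40 ± 0.33 for 5xFAD/Cd5l tg/wt (adjusted p = 0.0650) and -1.20 ± 0.33 for 5xFAD (adjusted p = 0.0715). The 5xFAD value without the 3 libraries was -1.17 with an adjusted p of 0.0188, and the 5xFAD/Cd5l tg/wt value, on library 1 alone, was -0.74 with an adjusted p of 0.389. Sncg, which marks a subset of Cck cells, had 7.46, 1.21 and 1.92 CPM in the 5xFAD/Cd5l tg/wt libraries, 8.27, 9.99 and 7.90 CPM in the 5xFAD libraries and 12.4, 11.2 and 16.5 CPM in the wild-type libraries. Its log2 fold change for 5xFAD/Cd5l tg/wt relative to wild-type was -1.93 ± 0.45 (adjusted p = 0.0554), and the lowest values were in transgenic libraries 2 and 3. Without the 3 libraries it was -0.67, on transgenic library 1 alone.

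Syt2, a synaptic calcium sensor of Pvalb terminals, had 105, 61.1 and 86.9 CPM in the 5xFAD/Cd5l tg/wt libraries, 112, 129 and 94.4 CPM in the 5xFAD libraries and 150, 103 and 248 CPM in the wild-type libraries. Like Pvalb it was highest in wild-type library 3 and lowest in transgenic library 2. Its log2 fold change for 5xFAD/Cd5l tg/wt relative to wild-type was -0.98 ± 0.27 (adjusted p = 0.112). For Syt2 it was -0.58 without wild-type library 3 (adjusted p = 0.338) and -0.27 without the 3 libraries, on transgenic library 1 alone. Cckbr, the main brain receptor of cholecystokinin, differed the other way, by 0.33 ± 0.09 in 5xFAD/Cd5l tg/wt against 5xFAD (adjusted p = 0.0521). Without the 3 libraries this difference was 0.15, on transgenic library 1 alone. Over the 12 peptide receptors the median log2 fold change was -0.02 in that comparison, 0.18 for 5xFAD/Cd5l tg/wt relative to wild-type and 0.18 for 5xFAD against wild-type.

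The genes with the most similar course over the 9 libraries were found by the root mean square difference of mean-centred log2 CPM, among 12232 other genes with a mean of at least 5 CPM, for the 7 genes with an SD above the median. Nearest to Gad2 were Htr2c at 0.0645, Dnajc12 at 0.0667 and Nap1l5 at 0.0706 log2 units. Nearest to Slc32a1 were Podxl2 at 0.0514, Nap1l5 at 0.0647 and Sccpdh at 0.0673, so Nap1l5 stood in both sets. Gad1 was nearest to Cdc42ep4 at 0.0588, Tmpo at 0.0701 and Gdf11 at 0.0722. Pvalb was nearest to Nefh at 0.131, Vamp1 at 0.178 and Syt2 at 0.181. Calb2 had more distant neighbours, Insyn2b at 0.182, Nxph4 at 0.260 and Mab21l1 at 0.263. Cck was nearest to Sorcs3 at 0.0583, Acsl5 at 0.0650 and Dlgap3 at 0.0672, and Reln to Astn2 at 0.0889, Inpp1 at 0.0933 and Deptor at 0.0938.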

How the data were processed

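The authors deposited 1 table of read counts per gene for 9 libraries, whole numbers without normalization, with Ensembl identifiers, symbols, coordinates and gene lengths. The genome build is GRCm39, per the submitters' processing notes. Which aligner and counter were used, whether counting kept strand and how reads with several matches were treated is not given in the sources used here. Per the labels' protocols, total RNA of 7-month-old mice was used and sequencing was on an Illumina instrument. Groups follow the genotype in the labels, with 3 libraries each.

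Genes were kept by filterByExpr (minimum count 10, minimum total 15). This left 17575 genes and discarded at most 0.161% of the counts of any library. TMM factors were 0.987 to 1.018. The quasi-likelihood fit (edgeR 4.0.16, limma 3.58.1, R 4.3.3) took all 9 libraries, with a coefficient for each genotype. The threshold was an adjusted p of 0.05 (Benjamini-Hochberg, over the 17575 genes). An SE is the absolute log2 fold change over the root of its F statistic. CPM used the scaled library sizes, and log2 CPM a prior count of 2. The scripts were tested on simulated data with known changes. Alternatives were other scalings (RLE, upper quartile, total count), other filters, DESeq2 1.42.0, limma-voom, a replicate block, fits of 6 libraries and libraries left out. Plots used matplotlib 3.10.9.

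The 10 genes, the lists and the left-out libraries were chosen with earlier results of these data known. The text names the 10 genes, the listed genes that passed and up to 2 more per list with the smallest p, marker genes that move with one of the 10, and, for each of the 10 with an SD above the median, the 3 genes nearest in log2 CPM. The 10 genes had 270 to 8865 counts per library. Promoter windows are those of RefSeq on GRCm38.p6, and shared 50-base words were counted in GENCODE transcripts of that build.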

Additional observations from a re-analysis of the deposited data

How the results depend on the processing

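Of 1026 log2 fold changes recomputed for 18 genes, 1004 kept their direction. The count of the 10 genes that passed depended on the setting; where a setting is not named it was 0, as in the report. For 5xFAD/Cd5l tg/wt against 5xFAD it was 1 with RLE scaling, with a filter of 1 CPM in 3 libraries and with limma-voom (Gad2 each), 1 in the fit of 6 libraries and without the 3 libraries that stand apart (Sst), 2 with DESeq2, 6 with no filter, and 0 to 3 with 1 library left out. The 3 (Gad2, Slc32a1 and Calb2) passed without 5xFAD/Cd5l tg/wt library 1. Relative to wild-type, 5xFAD/Cd5l tg/wt had a count of 2 with DESeq2, 3 without the 3 libraries, 5 with no filter, and 0 to 4 with 1 library left out. The 4 (Gad1, Gad2, Slc32a1 and Calb2) again passed without 5xFAD/Cd5l tg/wt library 1, and Pvalb passed without wild-type library 2. For 5xFAD against wild-type it was 1 with no filter (Pvalb). With no filter 31362 genes entered the fit and the prior degrees of freedom were infinite, against 6.45 with the filter. Without the 3 libraries, 5xFAD/Cd5l tg/wt was left with library 1 alone, so its counts there are not read as differences of the genotype. Without 5xFAD/Cd5l tg/wt library 1 it was left with libraries 2 and 3, the lowest for the 4 genes named. Those counts are likewise not read as separate support for a difference.

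Over all genes, 5xFAD against wild-type gave 615 calls, 1354 with no filter, 1154 without the 3 libraries and 206 to 850 with 1 library left out. 5xFAD/Cd5l tg/wt against 5xFAD gave 1095, 2063 with no filter, 630 without the 3 libraries and 278 to 2069 with 1 left out. Relative to wild-type, 5xFAD/Cd5l tg/wt gave 277, 1062 with no filter, 472 with DESeq2, 176 in the fit of 6 libraries and 158 to 686 with 1 left out.

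The direction of 22 recomputed log2 fold changes turned; none of those values passed, and the cause was not tested. Without the 3 libraries, Sst (-0.023), Reln (0.011) and Calb2 (0.31) turned in 5xFAD against wild-type. So did Calb2 (0.076) and Chodl (0.42) in 5xFAD/Cd5l tg/wt against 5xFAD, and Gad2 (0.029), Vip (-0.19), Cck (-0.23), Reln (0.13), Calb2 (0.39) and Slc6a11 (0.34) in 5xFAD/Cd5l tg/wt against wild-type. With 1 library left out, 5xFAD against wild-type ran from -0.44 to 0.30 for Calb2, from -0.39 to 0.00067 for Reln, from -0.033 to 0.18 for Sst and from -0.17 to 0.21 for Tac1. 5xFAD/Cd5l tg/wt against 5xFAD ran from -0.12 to 0.033 for Cck and from -0.65 to 0.14 for Chodl. 5xFAD/Cd5l tg/wt relative to wild-type ran from -0.0049 to 0.24 for Cck and from -0.29 to 0.12 for Reln. Tac1 in 5xFAD against wild-type was 0.0095 with limma-voom.

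Libraries with the same number did not deviate together (correlations -0.10 to 0.15), so the numbers were not used to pair them. A replicate block left 0 of the 10 genes called in each comparison, took the calls of Crh (adjusted p = 0.0623) and Acan (adjusted p = 0.0853), and turned Tac1 in 5xFAD against wild-type (0.0041). The levels with total-count scaling (30 group means) and the ratios with Slc32a1 as the denominator (21) moved by less than 1 SD.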
